A study of Homo sapiens with 6 samples.

Results

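The transcriptome of wild-type definitive endoderm (DE) cells was described from 2 RNA-seq libraries, which are replicates 1 and 2 of the wild-type group and 2 of the 6 libraries of the series. The cells were HUES8, an established human embryonic stem cell (ESC) line. They carried no edit, and they were collected after 3 days in DMEM with 100 ng/mL Activin A, 0.2% bovine serum albumin and penicillin/streptomycin, following 1 day in mTeSR1 on growth factor-reduced Matrigel. The other 4 libraries came from PDHB+/- cells of the same line, 2 from clone #1 and 2 from clone #2, which received the same differentiation medium. These clones were grown from transfected, sorted cells, so the genotype and the passage through cloning cannot be told apart where they are set against wild-type cells. The table gave TPM (a measure of transcript abundance, reads per base of a gene scaled to the same total in each library) for 49278 named genes, and a line without a name was dropped. All named genes were described by their mean over both wild-type libraries, and wherever a pair of values is given below, the first is replicate 1 and the second is replicate 2.

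Definitive endoderm is the germ layer from which the gut tube, liver, pancreas and lung arise. In the embryo it forms from mesendoderm of the primitive streak under high Nodal signalling, and in culture Activin A takes the place of Nodal, since both bind the same type I and type II receptors and act through SMAD2 and SMAD3 with FOXH1 and EOMES on DNA. The cells leave pluripotency, pass through a state marked by TBXT, MIXL1 and EOMES, and then switch on SOX17, FOXA2 and the chemokine receptor CXCR4. Nodal signalling also switches on its own secreted inhibitors, the Lefty proteins and Cerberus (CER1).

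The reads on named genes, worked out from the steps between the TPM values, numbered 11367594 and 12126696. For a gene counted over 1000 bases, 3 reads were worth 0.638 and 0.587 TPM, and levels at or under 3 reads were not distinguished from 0. This limit covers counting error only, because the reads carry no molecular identifiers. The replicates were close to each other. Among nuclear protein-coding genes, the median difference between the replicates was 0.05 on the log2 scale for the 1021 genes at 100 TPM or more, 0.08 for the 6440 genes from 10 to 100 TPM and 0.15 for the 4751 genes from 1 to 10 TPM. Over 17042 genes with at least 20 reads, the replicates differed by a chi-square of 1.88 per degree of freedom, against 1 for counting noise alone. The labels do not say that the replicates were separate cultures, so the spread given here may be technical.

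At least 1 TPM was found in both libraries for 16224 genes, of which 12019 were nuclear protein-coding genes. The median nuclear protein-coding gene stood at 3.76 TPM, the 90th percentile at 57.5 TPM and the 99th percentile at 331 TPM. Only 1374 genes reached 100 TPM in both libraries, and 90 genes reached 1000 TPM, of which 25 were nuclear and protein-coding. RNA was concentrated in few genes, since the 100 most abundant genes held 40.6% of all TPM (SD 0.06, n = 2). This share was much lower when the mitochondrial genome was left out, as given in the last section.

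**Figure D1:**
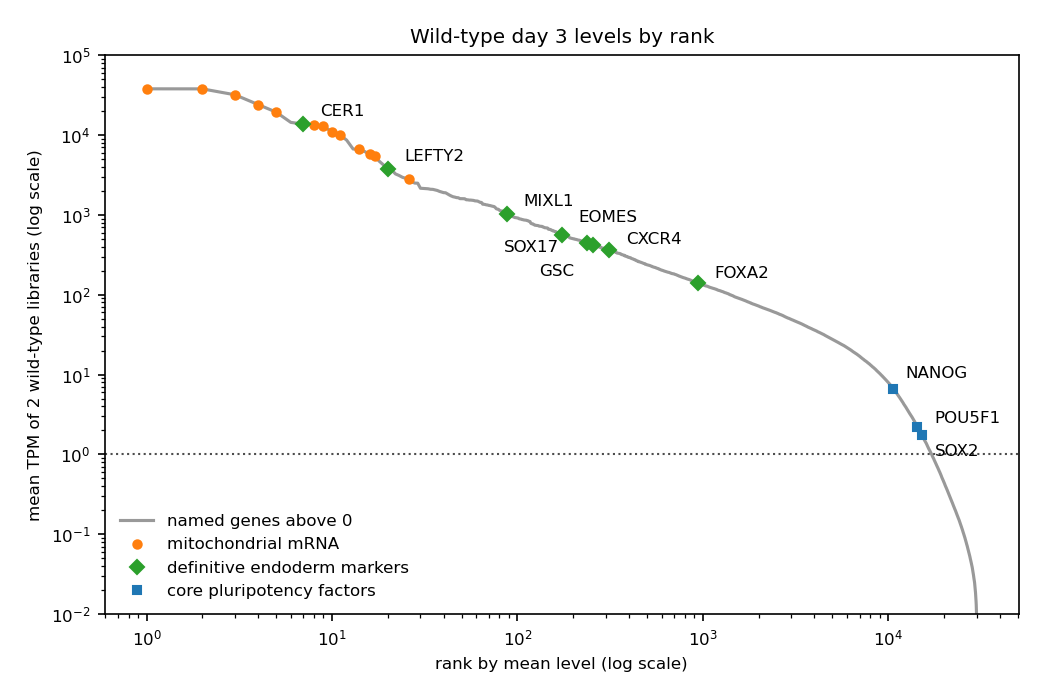
Mean TPM of both wild-type libraries (log scale) against rank (log scale) for all named genes above 0, with mitochondrial mRNAs as circles, the 8 DE markers as diamonds and POU5F1, NANOG and SOX2 as squares. CER1 is at rank 7 and LEFTY2 at rank 20 among mitochondrial mRNAs, FOXA2 is at rank 941, and the 3 pluripotency factors are between 1 and 10 TPM (the dotted line marks 1 TPM).

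By class of RNA, nuclear protein-coding genes held 52.5% and 52.4% of the TPM, mRNAs of the mitochondrial genome 21.9% and 21.9%, and pseudogenes 19.3% and 19.6%. All 37 genes of the mitochondrial genome together held 24.6% and 24.4%. Shares of reads were different, because TPM divides by length and the mitochondrial genes and pseudogenes are short. In replicate 1, nuclear protein-coding genes took 80.4% of the reads, mitochondrial mRNAs 8.92% and pseudogenes 8.11%. Genes of miRNAs held 1.40% and 1.42% of the TPM, long non-coding RNAs 1.10% and 1.09%, and mitochondrial ribosomal RNAs 1.71% and 1.58%. Among the 100 most abundant genes were 49 pseudogenes, 30 nuclear protein-coding genes, 13 mitochondrial mRNAs, 3 miRNA genes, 3 mitochondrial transfer RNAs and 2 mitochondrial ribosomal RNAs.

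**Figure D2:**
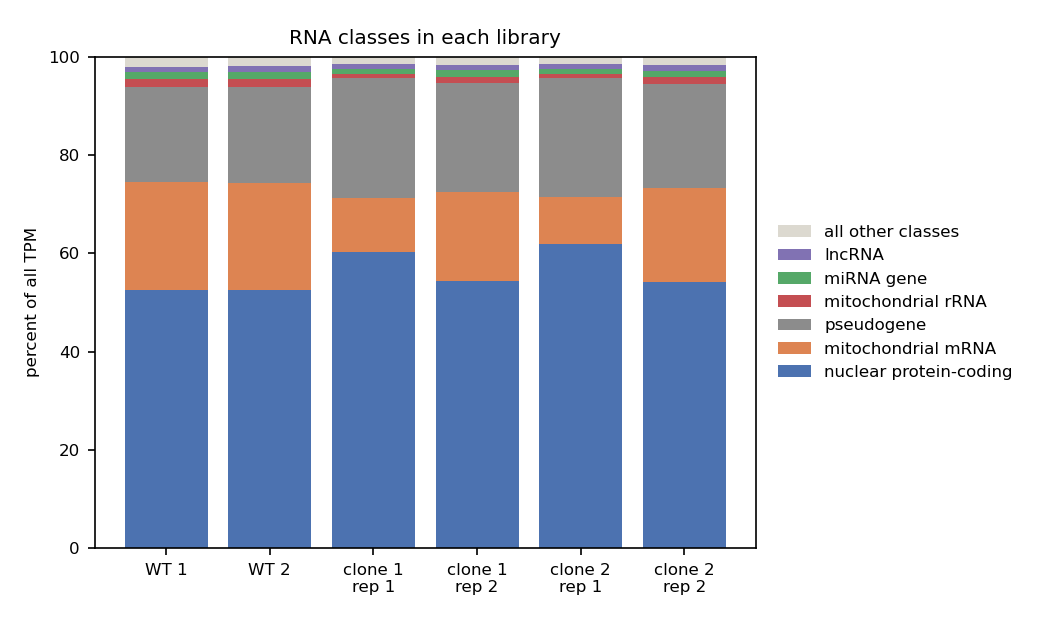
Share of all TPM (percent) held by each class of gene in each of the 6 libraries. The 2 wild-type libraries differ by less than 1 percentage point in every class, and their mitochondrial mRNA shares of 21.9% lie above those of the 4 PDHB+/- libraries, which run from 9.73% to 19.1%.

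Mitochondrial mRNAs filled the top of the list, and 12 of the 20 most abundant genes were of this kind. COX2 and COX1, which encode the catalytic core subunits of cytochrome c oxidase, were the most abundant at 38016 and 37817 TPM and at 39139 and 36606 TPM. They were followed by COX3 at 31774 and 32063 TPM, ND4 at 23706 and 24454 TPM and ATP6, a subunit of ATP synthase, at 19253 and 19464 TPM. The other complex I subunits ND1, ND2, ND4L, ND5, ND6 and ND3 lay between 5446 and 13360 TPM in the mean, and cytochrome b (CYTB) lay at 12656 and 13081 TPM. The large mitochondrial ribosomal RNA RNR2 was at 14996 and 13806 TPM and the cysteine transfer RNA TRNC at 4212 and 4199 TPM. The replicates differed by less than 10% for each of these mRNAs.

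A miRNA gene, MIR12136, stood 13th at 6694 and 6685 TPM, which came from 2233 and 2427 reads on a hairpin of 71 bases. The paper describes extraction of total RNA and names no selection of small RNAs. A value for a miRNA gene counts reads on the hairpin's locus, and it is not taken as a measure of the mature miRNA. The hairpin lies at chr1:632615-632685 on the minus strand (RefSeq, GRCh38.p14). Its sequence is shown because it is that of a mitochondrial transfer RNA, with the 69 bases that align to the serine transfer RNA MT-TS1 without a difference in capitals:
MIR12136: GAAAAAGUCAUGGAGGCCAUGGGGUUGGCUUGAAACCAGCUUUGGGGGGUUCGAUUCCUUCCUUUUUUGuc
Reads from either locus have the same letters over these bases, so the reads on MIR12136 and those of the mitochondrial transfer RNA could not be separated by sequence there. MIR4426, at 2997 and 2918 TPM, had no such match, with 24 of 27 aligned bases shared with its nearest mitochondrial RNA.

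Pseudogenes that are spliced copies of mRNAs made up most of the remaining abundant entries. EEF1A1P5, a copy of the translation elongation factor gene EEF1A1, was at 6344 and 6113 TPM, while EEF1A1 itself was at 954 and 941 TPM. All 37 named copies of EEF1A1 together held 8579 and 8281 TPM, and they took 81.7% and 81.4% of the reads of the family. In the same way RPL13A, a protein of the large ribosomal subunit, was at 269 and 264 TPM and its copy RPL13AP5 at 3643 and 3663 TPM. Of 66 families of cytosolic ribosomal protein genes, 59 had more TPM on the copies than on the gene itself, with a median of 91.4% on the copies. The ribosomal protein genes together held 1.15% of all TPM and their copies 9.41%. In 871 other families with at least 10 TPM in total, 316 had more on the copies, with a median of 36.8%.

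The sequences of EEF1A1 and its copy are shown at an exon junction, because this is where an aligner that does not split reads can place a read only on the copy. In both lines the 4 capitals are the last and first bases of neighbouring exons of the gene, which in the genome are 366 bases apart, and which are joined in the copy (60 bases from hg38, exons from GENCODE 44). The EEF1A1 bases come from chr6:73519487-73519912 on the minus strand and those of EEF1A1P5 from chr9:133019600-133019659 on the plus strand:
EEF1A1: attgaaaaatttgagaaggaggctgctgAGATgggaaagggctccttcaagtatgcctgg
EEF1A1P5: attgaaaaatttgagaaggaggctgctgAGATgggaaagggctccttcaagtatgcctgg
Within this span gene and copy had 0 differences. Over the whole coding sequence, EEF1A1 and EEF1A1P5 shared 1382 of 1386 bases, and 85.0% of all 50-base windows of the EEF1A1 coding sequence occurred unchanged in the copy. A read on such a pair is therefore of uncertain origin, and the level of the gene and that of its copy are best read as a sum.

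Outside these groups, the most abundant nuclear protein-coding gene was CER1, at 13850 and 13605 TPM, which put it 7th among all genes. ACTB, cytoplasmic beta-actin, was the second at 8331 and 8937 TPM, and TMSB10, which binds actin monomers, was the third at 4631 and 4761 TPM. LEFTY2 was the fourth at 3795 and 3709 TPM. They were followed by ACTG1 at 3197 and 3324 TPM, the myosin light chain MYL6 at 2433 and 2570 TPM, LEFTY1 at 2523 and 2467 TPM, the lysosomal membrane protein gene LAPTM4B at 1999 and 1940 TPM, the tubulin gene TUBA1B at 1908 and 1892 TPM and CALR, a chaperone of the endoplasmic reticulum, at 1611 and 1680 TPM. By deposited levels, with no copies added, 3 of these 10 genes encoded secreted inhibitors of Nodal. Another 5 of the 10 encoded parts of the cytoskeleton or a protein that binds them. The copies EEF1A1P5, at 6344 and 6113 TPM, and RPL13AP5, at 3643 and 3663 TPM, would rank among these genes. The places below CER1 therefore depend on whether copies are added to their genes.

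All 8 DE markers were above 100 TPM in both libraries, and together they held 20566 and 20309 TPM. CER1 and LEFTY2 alone made up most of that sum. MIXL1, a homeobox factor of the primitive streak, was at 1015 and 1046 TPM. EOMES, the T-box factor that opens the endoderm programme, was at 561 and 563 TPM, and SOX17, the SRY-related factor that defines the lineage, was at 429 and 454 TPM. GSC, a homeobox repressor of the organizer, was at 418 and 419 TPM, CXCR4 at 359 and 367 TPM, and the forkhead pioneer factor FOXA2 at 139 and 144 TPM. FOXA2 was the lowest of the markers, and it was still above 96.7% of nuclear protein-coding genes. The order of the deposited levels was the same in both replicates, although SOX17 and GSC lay closer to each other than the replicates of SOX17 did.

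The markers lie at chr9:14719724-14722733 (CER1, ENSG00000147869.5, minus strand), chr1:225936598-225941383 (LEFTY2, minus), chr1:226223618-226227060 (MIXL1, plus), chr3:27715949-27722711 (EOMES, minus), chr14:94768223-94770113 (GSC, minus), chr2:136114349-136119177 (CXCR4, minus) and chr20:22580998-22585455 (FOXA2, minus) of hg38. LEFTY1 and LEFTY2 are neighbours with near-identical coding sequences, sharing 1064 of 1093 aligned bases, and 47.0% of the 50-base windows of LEFTY1 occurred in LEFTY2, so the split of reads between them is uncertain. The length used for counting also bears on the levels. It was 2822 bases for CER1, 2.29 times the 1231 bases of its canonical GENCODE transcript. The deposited CER1 level times that ratio comes to 31751 and 31190, with no rescaling to the same total, so these are not on the scale of the other levels. For CXCR4 the same product comes to 608 and 623, beside 610 and 612 for EOMES. The place of CXCR4 among the markers therefore depends on the length used. For 12193 protein-coding genes the median ratio of the lengths was 1.15, and 18.0% had a ratio above 2.

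The 250 bases upstream of CER1 are shown because CER1 led all nuclear mRNAs and is a known target of Nodal signalling (RefSeq, chr9:14722734-14722983, minus strand). The capitals mark matches to the SMAD-type motif CAGAC, at bases -218 to -214 from the start site, and to the FOXH1-type motif TGTNNATT, at -88 to -81 and, on the other strand, at -154 to -147:
CER1: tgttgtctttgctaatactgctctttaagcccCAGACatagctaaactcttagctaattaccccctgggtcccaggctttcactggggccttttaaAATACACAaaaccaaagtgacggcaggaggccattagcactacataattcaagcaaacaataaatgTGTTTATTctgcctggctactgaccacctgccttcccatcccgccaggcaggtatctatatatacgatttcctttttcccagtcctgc
The FOXH1-type match at -88 to -81 overlaps the forkhead motif TGTTTA, at -88 to -83. Both strands of the 250 bases before the start were searched, and entries were at hand for 5 of the 8 markers (CER1, CXCR4, EOMES, GSC and MIXL1). TGTNNATT was found in 3 of the 5 (CER1, CXCR4 and MIXL1), against 9.88% of 35116 promoters. CAGAC was found in 4 of the 5, against 38.003%, and TGTTTA in CER1 alone, against 10.99%. The T-box motif AGGTGT and the homeobox motif TAATCC were in none of the 5, against 9.57% and 5.62% of all promoters. These are matches of letters, and no binding was measured here.

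The endoderm transcription factors listed as core or early were mostly high, and the others were low. Of 18 such factors, 9 were at or above 10 TPM and 14 at or above 1 TPM in both libraries. The zinc finger factor GATA6 stood at 430 and 430 TPM, level with SOX17, and its relative GATA4 at 124 and 125 TPM. OTX2, a homeobox factor of anterior tissue, was at 429 and 428 TPM. HHEX, which marks anterior definitive endoderm and the liver bud, was at 131 and 124 TPM, PRDM1 at 54.3 and 54.0 TPM and LHX1 at 40.6 and 40.8 TPM. Of the forkhead paralogues, FOXA3 was at 38.1 and 41.0 TPM and FOXA1 at 3.40 and 4.01 TPM, so the order was FOXA2, FOXA3 and FOXA1, with no overlap between the replicates of any neighbours. None of the other 8 listed factors, most but not all of them of later liver and gut, reached 10 TPM. SOX18 was at 7.66 and 9.87 TPM, HNF4A at 6.97 and 5.98 TPM and ONECUT1 at 2.16 and 1.64 TPM, and the gap between SOX18 and HNF4A was smaller than the difference between the replicates of SOX18. SOX7 and SOX9 were under 1 TPM, and CDX2, the hindgut factor, had at most 1 read.

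**Figure D3:**
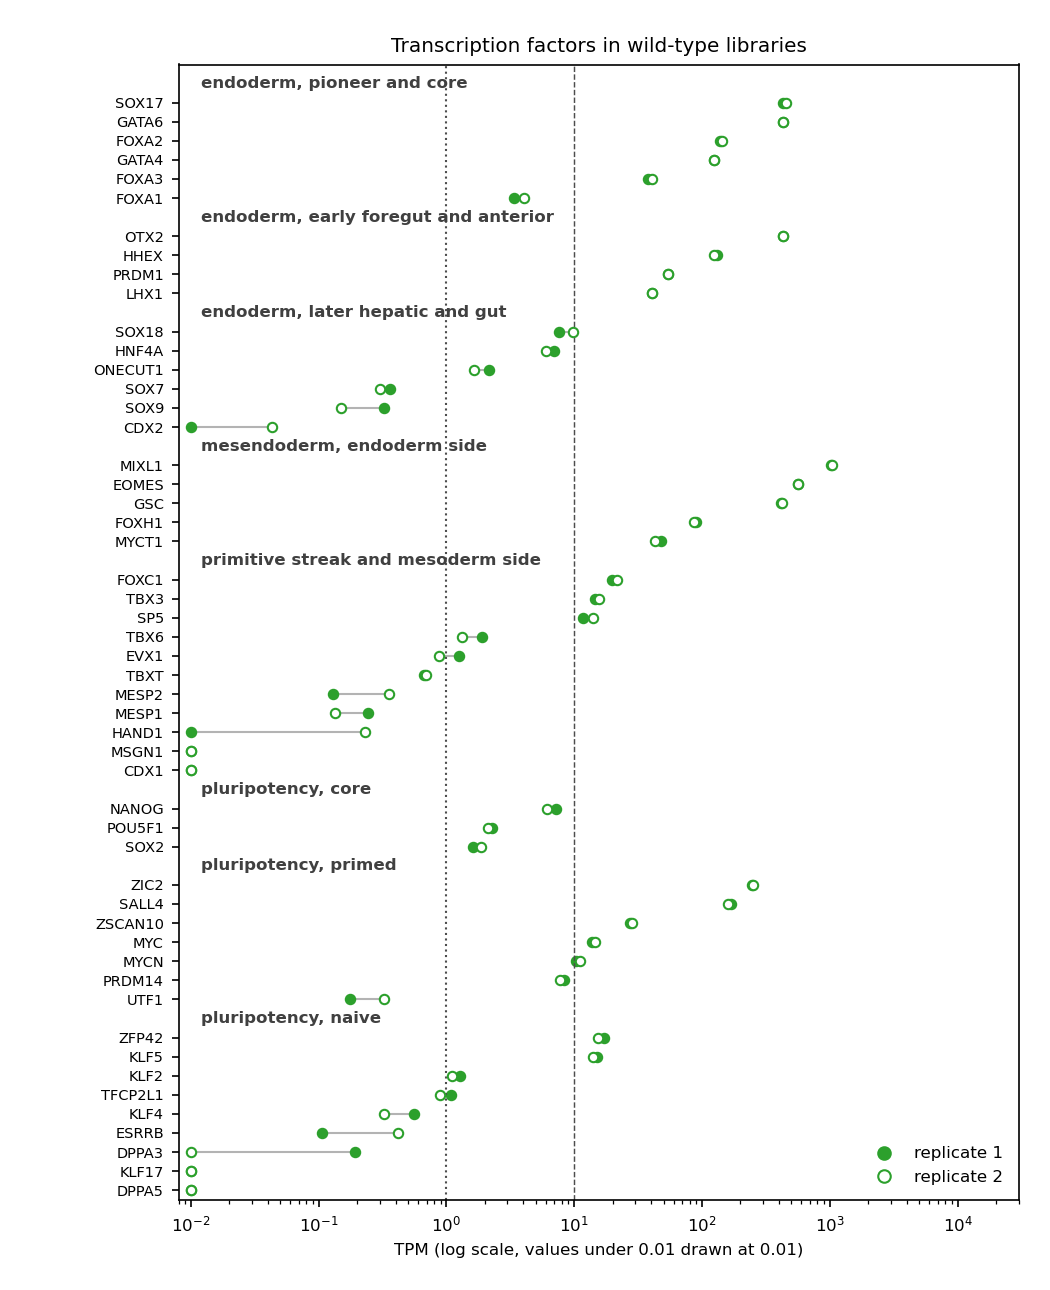
TPM in wild-type replicates 1 and 2 (points, log scale) of transcription factors of endoderm, of mesendoderm and of pluripotency, with values under 0.01 TPM drawn at 0.01 and vertical lines at 1 and 10 TPM. SOX17, GATA6, OTX2, EOMES, MIXL1 and GSC lie above 400 TPM, while TBXT, POU5F1, NANOG and SOX2 lie under 10 TPM.

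The mesendoderm regulators were listed on an endoderm side and on a side of the streak and mesoderm. The lists were chosen with earlier results of these data known, so the contrast between the sides is a description only. MIXL1 was listed on the endoderm side although it is also a factor of the primitive streak. All 5 genes listed on the endoderm side were above 10 TPM. Beside MIXL1, EOMES and GSC these were FOXH1, the DNA-binding partner of SMAD2 and SMAD3, at 90.01 and 86.5 TPM, and MYCT1 at 48.1 and 42.7 TPM. Of the FOXH1 exonic bases, 39.2% overlap another annotated gene and strand was not stated for the counting, so part of its reads is of uncertain origin. Of 11 genes listed on the streak and mesoderm side, 3 reached 10 TPM, namely FOXC1 at 19.9 and 21.7 TPM, TBX3 at 14.6 and 15.7 TPM and the WNT target SP5 at 11.8 and 13.9 TPM. TBXT (Brachyury), the classical streak factor, had 8 and 9 reads, or 0.666 and 0.688 TPM. TBX6, a factor of paraxial mesoderm, was at 1.91 and 1.31 TPM and EVX1, of the posterior streak, at 1.24 and 0.874 TPM. MESP1 had 5 and 3 reads, MESP2 1 and 3 reads, and MSGN1 and CDX1 had 0 reads in both libraries. MIXL1 and EOMES were thus present above 500 TPM in libraries in which TBXT was near the limit of detection.

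Cell surface genes used to sort or describe endoderm were mostly high, with 12 of 14 at or above 10 TPM. The tight junction gene CLDN6 led at 820 and 875 TPM. Neural cadherin (CDH2) was at 606 and 592 TPM and epithelial cadherin (CDH1) at 69.1 and 64.9 TPM, so that CDH2 was above CDH1 in both libraries, while the epithelial adhesion gene EPCAM was at 508 and 502 TPM. The WNT receptors FZD5 and FZD8 were at 420 and 394 TPM and at 131 and 137 TPM, and LGR5, the R-spondin receptor, was at 63.6 and 61.6 TPM. ACKR3, which binds the CXCR4 ligand CXCL12 as a decoy, was at 273 and 264 TPM, and the receptor tyrosine kinase KIT at 111 and 107 TPM. GPR37 was at 42.5 and 37.7 TPM with 21.4% of its exonic bases overlapping another gene, and FLRT3 at 15.2 and 14.1 TPM. PDGFRA, a receptor of mesoderm and primitive endoderm, was at 8.36 and 8.40 TPM, and CD177 was near the limit at 12 and 19 reads.

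The pluripotency genes were not uniformly low. The core factors SOX2, POU5F1 (OCT4) and NANOG were all under 10 TPM as deposited, and several others of the ESC state were above 100 TPM. In bulk RNA, fewer cells that express a gene and less RNA per cell cannot be told apart, so a low level does not say whether few cells kept it. SOX2, which pairs with OCT4 in ESCs, had 19 and 24 reads, or 1.61 and 1.87 TPM. NANOG had 176 and 163 reads, or 7.23 and 6.15 TPM. POU5F1 had 208 and 211 reads, or 2.28 and 2.13 TPM. The counting length of POU5F1 was 19377 bases, 13.75 times the 1409 bases of its canonical transcript. Its deposited level times that ratio comes to 31.4 and 29.3, again not rescaled to the same total, while the counting and canonical lengths of NANOG and SOX2 were equal.

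POU5F1 and NANOG also have spliced copies that took reads. The copy POU5F1P3 was at 22.4 and 17.3 TPM, POU5F1P4 at 11.6 and 9.21 TPM and NANOGP8 at 18.6 and 16.9 TPM. Copies took 58.1% and 55.5% of the reads of the POU5F1 family and 51.5% and 51.9% of those of the NANOG family. The spans shown were chosen as for EEF1A1, with the 4 capitals at an exon junction whose exons lie 4168 bases apart in POU5F1 (chr6:31166018-31170245, minus strand) and 1244 bases apart in NANOG (chr12:7793183-7794486, plus strand), and which are joined in POU5F1P3 (chr12:8134417-8134476, minus strand) and NANOGP8 (chr15:35084667-35084726, minus strand):
POU5F1: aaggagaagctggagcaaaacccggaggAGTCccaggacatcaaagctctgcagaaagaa
POU5F1P3: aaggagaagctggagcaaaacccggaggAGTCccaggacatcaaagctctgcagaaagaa
NANOG: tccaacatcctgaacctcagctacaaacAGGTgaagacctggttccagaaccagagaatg
NANOGP8: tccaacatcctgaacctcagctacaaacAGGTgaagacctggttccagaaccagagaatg
Both pairs had 0 differences in the span. Over the coding sequence POU5F1 and POU5F1P3 shared 1056 of 1076 aligned bases with 40.9% of 50-base windows unchanged, and NANOG and NANOGP8 shared 910 of 915 bases with 71.5% unchanged. With all copies added, POU5F1 RNA would be raised by 41.3 and 33.3 TPM and NANOG RNA by 21.6 and 18.6 TPM, both far below the levels of SOX17 or GATA6.

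Other transcription factors of primed ESCs were higher. ZIC2 was at 248 and 250 TPM and SALL4 at 169 and 159 TPM, both zinc finger factors with roles in both ESCs and gastrulating embryos. ZSCAN10 was at 27.5 and 28.6 TPM, MYC at 13.7 and 14.5 TPM and MYCN at 10.4 and 11.01 TPM, while PRDM14 was at 8.35 and 7.76 TPM and UTF1 had at most 2 reads. Of 9 factors of naive pluripotency, ZFP42 at 17.1 and 15.3 TPM and KLF5 at 15.1 and 14.0 TPM reached 10 TPM, KLF2 was at 1.28 and 1.11 TPM, and KLF17 and DPPA5 had 0 reads. In all, 8 of 20 pluripotency factors were at or above 10 TPM.

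Of 15 other ESC genes, 9 were at or above 10 TPM, and some ranked with the DE markers. The Nodal co-receptor TDGF1 (Cripto) was at 958 and 999 TPM, with its copy TDGF1P3 at 389 and 407 TPM. LIN28A, which blocks maturation of let-7 miRNAs, was at 653 and 670 TPM, with LIN28AP1 at 132 and 108 TPM, and its paralogue LIN28B at 49.4 and 41.6 TPM. L1TD1, an RNA-binding protein gene, was at 495 and 481 TPM, the sialomucin gene PODXL at 478 and 454 TPM, and the neuropeptide gene GAL at 390 and 420 TPM. The de novo DNA methyltransferase DNMT3B was at 174 and 177 TPM, DPPA4 at 126 and 126 TPM and TRIM71 at 25.6 and 24.4 TPM. THY1, a surface marker of ESCs, was at 3.58 and 4.09 TPM, and FGF2, an ESC self-renewal factor, at 0.688 and 0.661 TPM. The RNAs that were high thus included RNA-binding, surface and chromatin genes of the ESC list.

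The miR-302/367 cluster is among the most abundant miRNA clusters of human ESCs, and reads were found on all 5 of its genes. MIR367 had 30 and 28 reads, or 93.9 and 80.5 TPM, MIR302A 27 and 31 reads, MIR302D 27 and 29 reads, MIR302C 20 and 27 reads and MIR302B 4 and 9 reads. Their host gene MIR302CHG was at 7.25 and 10.2 TPM. These are reads on hairpin loci that lie within another gene, and the mature miRNAs were not measured. The mature sequences are shown because the 4 members of the miR-302 family share a seed (bases 2 to 8, in capitals) that miR-367 does not (RefSeq, GRCh38.p14; the MIR302B hairpin lies at chr4:112648485-112648557 and that of MIR367 at chr4:112647874-112647941, minus strand):
hsa-miR-302a-3p: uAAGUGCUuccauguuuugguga
hsa-miR-302b-3p: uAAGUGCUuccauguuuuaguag
hsa-miR-302c-3p: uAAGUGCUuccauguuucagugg
hsa-miR-302d-3p: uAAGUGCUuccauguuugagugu
hsa-miR-367-3p: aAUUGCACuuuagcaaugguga
The seed AAGUGCU was thus carried by 4 of the 5 and AUUGCAC by the other. Of long non-coding RNAs, LINC00458 was at 379 and 353 TPM, GATA6-AS1, antisense to GATA6, at 159 and 147 TPM, and LINC00261, which lies near FOXA2, at 91.3 and 85.6 TPM, and these 3 genes were picked with their values known.

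In the Nodal pathway, NODAL was the highest ligand gene, and the inhibitors CER1, LEFTY2 and LEFTY1 stood far above it. NODAL was at 380 and 386 TPM, although 33.5% of its exonic bases overlap another gene. GDF3 was at 9.64 and 9.49 TPM. The activin subunit genes INHBA and INHBB had at most 1 read in each library, so RNA for the subunits of the Activin A given in the medium was not distinguished from 0 in these cells. GDF1 had 0 reads, but all of its exonic bases overlap another gene, so a read on it may not have been assignable. Of the EGF-CFC co-receptors, TDGF1 was high as given above and CFC1 had 1 and 1 read. The 6 secreted antagonists together held 20523 and 20157 TPM, nearly all on CER1, LEFTY2 and LEFTY1, and follistatin (FST), which traps activin, was at 344 and 365 TPM. Of the LEFTY1 exonic bases, 46.6% overlap another annotated gene. FSTL3 was at 9.62 and 8.99 TPM and INHA was near the limit at 5 and 8 reads.

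The receptors of that pathway were all under 25 TPM. ACVR2B was at 23.9 and 23.2 TPM and ACVR1B at 22.1 and 22.0 TPM, which are the type II and type I receptors that bind activin and Nodal. TGFBR1 was at 12.4 and 11.5 TPM, ACVR2A at 10.8 and 10.2 TPM and TGFBR2 at 3.42 and 3.36 TPM, and ACVR1C, the alternative type I receptor of Nodal, was at 14 and 7 reads. Inside the cell, SMAD3 at 32.5 and 32.0 TPM was above SMAD2 at 9.19 and 8.89 TPM, and the shared partner SMAD4 was at 24.0 and 23.3 TPM. The feedback inhibitors PMEPA1, SMAD7 and SKIL were at 58.8 and 59.9 TPM, 54.8 and 52.8 TPM and 44.9 and 41.9 TPM.

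**Figure D4:**
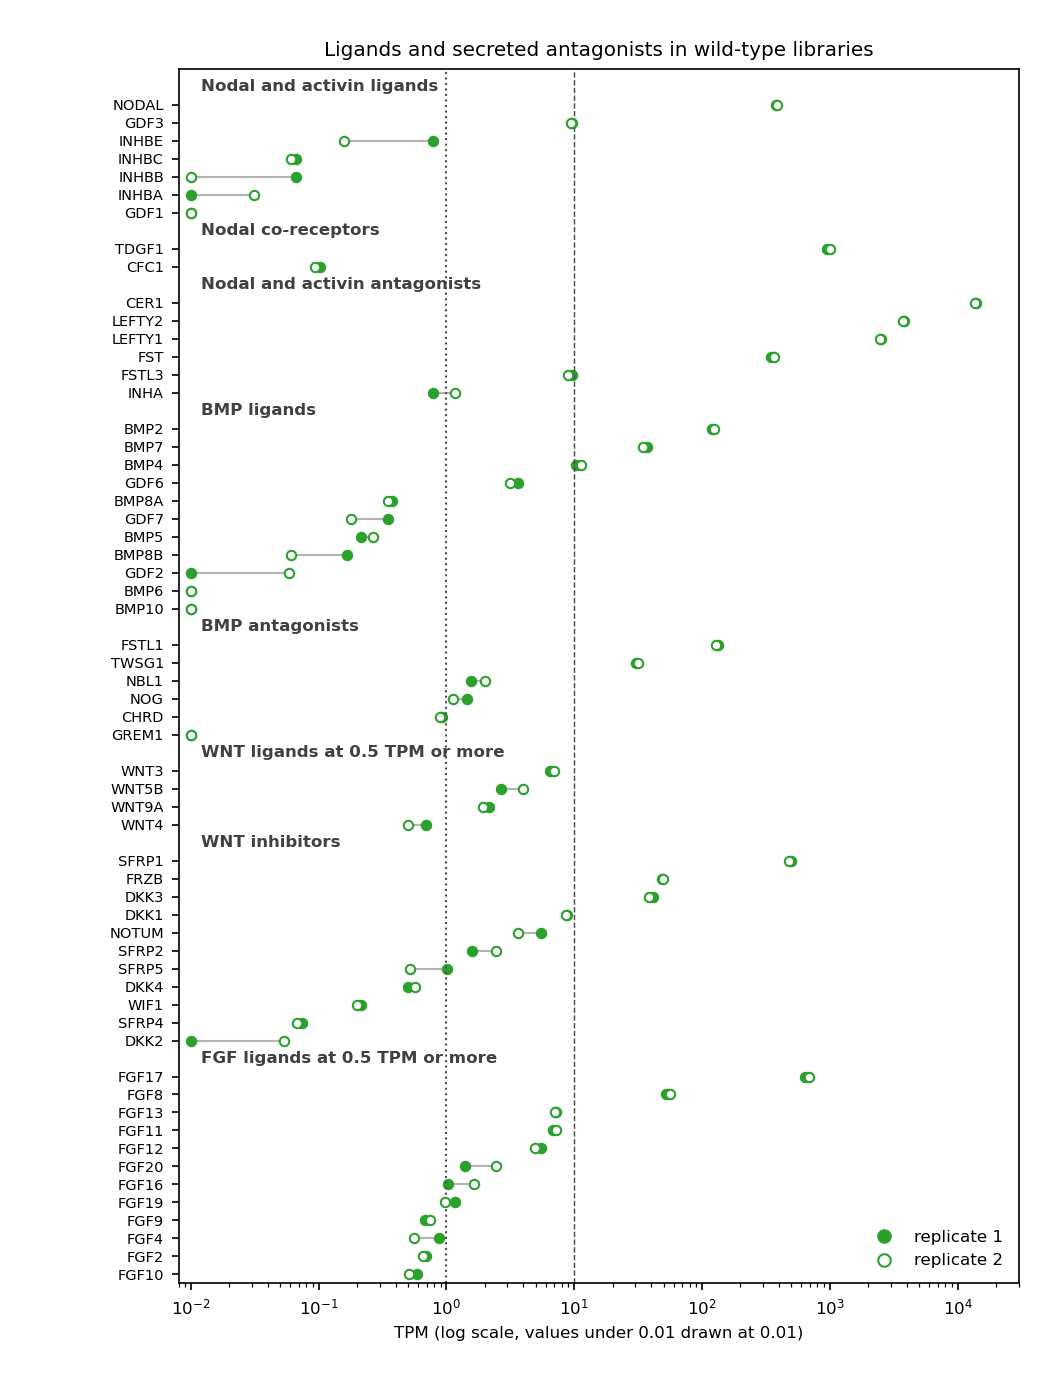
TPM in wild-type replicates 1 and 2 (points, log scale) of Nodal, BMP, WNT and FGF ligands, co-receptors and secreted antagonists, joined by a line for each gene, with WNT and FGF ligands shown from a mean of 0.5 TPM. Values under 0.01 TPM are drawn at 0.01, and the vertical lines mark 1 and 10 TPM. CER1, LEFTY2 and LEFTY1 stand above every other member, and none of the WNT ligands reaches 10 TPM.

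The ligands and antagonists on the BMP list were both present at moderate levels. CER1 and FST were counted only among the Nodal and activin antagonists, so they are not part of this list. BMP2 led the ligands at 121 and 123 TPM, followed by BMP7 at 37.3 and 34.5 TPM, BMP4 at 10.3 and 11.2 TPM and GDF6 at 3.61 and 3.16 TPM, and the other 7 of 11 ligands were under 1 TPM. Among the antagonists, FSTL1 was at 133 and 128 TPM and TWSG1 at 30.2 and 31.3 TPM. The organizer antagonists noggin (NOG) and chordin (CHRD) were near 1 TPM, at 1.45 and 1.12 TPM and at 0.918 and 0.883 TPM. BMP target genes were detected, with ID3 at 45.4 and 46.9 TPM, ID2 at 29.8 and 28.9 TPM, ID1 at 24.4 and 22.9 TPM, BAMBI at 20.01 and 17.3 TPM, SMAD6 at 16.8 and 15.5 TPM and ID4 at 1.65 and 1.87 TPM.

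No WNT ligand was abundant. None of 19 reached 10 TPM, 3 were at or above 1 TPM and 10 had at most 3 reads in both libraries. WNT3, the ligand of the primitive streak, was at 6.50 and 6.90 TPM, WNT5B at 2.65 and 3.95 TPM and WNT9A at 2.16 and 1.93 TPM. In contrast the secreted frizzled-related protein SFRP1, which binds WNT ligands, was at 501 and 480 TPM. FRZB, of the same family, was at 48.5 and 49.4 TPM, DKK3 at 41.0 and 38.7 TPM with 47.5% of its exonic bases overlapping another gene, DKK1 at 8.73 and 8.56 TPM and the WNT deacylase gene NOTUM at 5.46 and 3.61 TPM. Of the R-spondins, which strengthen WNT signalling, RSPO4 was at 5.48 and 5.87 TPM and the other 3 had at most 2 reads.

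A pair of FGF genes stood out among 22, and both belong to the same subfamily of secreted ligands. FGF17 was at 636 and 684 TPM and FGF8 at 52.7 and 56.2 TPM. The counting length of FGF17 was 3.75 times its canonical length. In all, 7 FGF genes were at or above 1 TPM, among them the intracellular members FGF11, FGF12 and FGF13 at 4.92 to 7.27 TPM, and 82.1% of the exonic bases of FGF11 overlap another gene. The ESC ligands FGF2 and FGF4 were under 1 TPM, FGF4 at 0.874 and 0.556 TPM, and FGF5, of the epiblast, had 2 and 0 reads. Of 25 other secreted ligands, 3 reached 10 TPM in both libraries. The angiogenic factor VEGFA was at 91.95 and 91.03 TPM, TGFB1 at 47.2 and 52.5 TPM and the Notch ligand JAG2 at 11.997 and 12.6 TPM, while Sonic hedgehog (SHH) was close to that level at 9.85 and 11.2 TPM. CXCL12, the ligand of CXCR4, was at 3.19 and 3.38 TPM, far below its receptor.

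Markers of 10 other lineages were mostly undetected. Of 96 such genes, counted once each, 19 (19.8%) were at or above 1 TPM in both libraries, against 60.4% of all nuclear protein-coding genes. At most 3 reads in both libraries were found for 58 of the 96, and 25 had 0 reads. In the pancreas list, PDX1, PTF1A, NEUROG3, INS, GCG and SST had 0 reads. In the liver list AFP and TTR had 0 reads and ALB 2 and 2 reads, and in the muscle list MYOG had 0 reads and MYOD1 0 and 1 read. Trophoblast hormone and keratin genes CGA, CGB3 and KRT7, the germ cell genes DAZL and DDX4, and the lung surfactant genes SFTPC and SFTPB also had 0 reads. The leukocyte gene PTPRC had 0 and 3 reads and the endothelial gene PECAM1 1 and 1 read. In neuroectoderm, SOX1 had 2 and 1 reads.

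**Figure D5:**
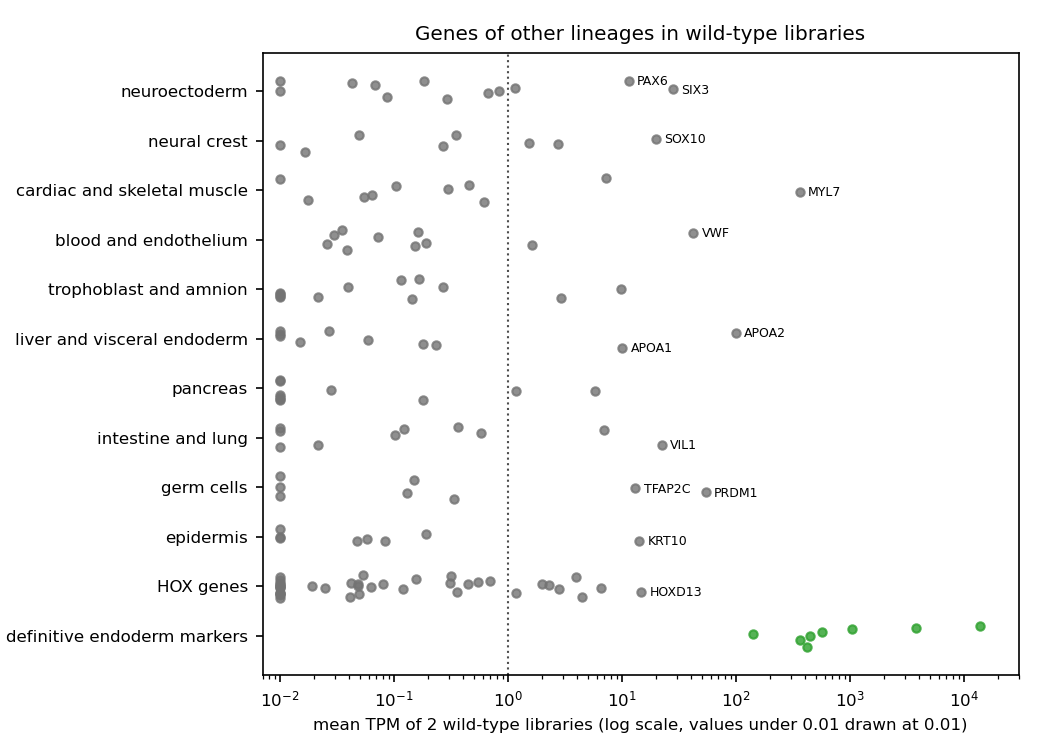
Mean wild-type TPM (log scale) of each member of the lists of 10 other lineages and of the HOX genes, beside the 8 DE markers (green), with values under 0.01 TPM drawn at 0.01 and a dotted line at 1 TPM. Most members lie under 1 TPM, and of the lineage genes MYL7, APOA2, PRDM1 and VWF are the highest.

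The exceptions were single genes, not whole programmes. MYL7, an atrial myosin light chain, was at 335 and 385 TPM, while the other cardiac genes TNNT2, MYH6 and MYH7 were under 1 TPM and NKX2-5 was at 7.97 and 6.38 TPM. The apolipoprotein gene APOA2 was at 102 and 96.96 TPM and APOA1 at 8.43 and 11.6 TPM, with ALB, AFP and TTR at or under 2 reads. PRDM1, which also belongs to the endoderm list, was the highest of the germ cell list, with TFAP2C at 12.9 and 13.2 TPM. Von Willebrand factor (VWF) was at 44.8 and 39.4 TPM and TEK at 1.38 and 1.89 TPM. The eye and forebrain factor SIX3 was at 27.2 and 28.8 TPM and PAX6 at 10.8 and 12.04 TPM, the latter with 26.3% overlapped exonic bases. The neural crest factor SOX10 was at 19.4 and 20.1 TPM, with PAX7 at 2.76 and 2.69 TPM, FOXD3 at 1.58 and 1.45 TPM, and SNAI2 at 0 reads. GATA3 was at 9.42 and 10.3 TPM, ISL1 at 2.48 and 3.38 TPM, MNX1 at 5.52 and 6.11 TPM, VIL1 at 22.6 and 22.1 TPM, NKX2-1 at 6.72 and 7.24 TPM and KRT10 at 14.0 and 14.2 TPM. Of the exonic bases of VIL1 and NKX2-1, 44.2% and 40.7% overlap another gene.

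HOX genes, which give cells their position along the body axis, were largely undetected. Of 39, 26 had at most 3 reads in both libraries and 13 had 0 reads, and 8 were at or above 1 TPM. The HOXA cluster had no gene at 1 TPM among 11. HOXD13, at the 5′ end of its cluster, was the highest at 14.7 and 14.6 TPM, followed by HOXB13 at 6.65 and 6.50 TPM, HOXB2 at 4.89 and 4.07 TPM and HOXD10 at 3.82 and 4.05 TPM.

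Wild-type levels were then set against the 4 PDHB+/- libraries, to show which of the genes above differ from cells with a reduced dose of PDHB, a subunit of the pyruvate dehydrogenase complex that feeds pyruvate into the TCA cycle. PDHB itself was at 369 and 362 TPM in wild-type and at 157 to 200 TPM in PDHB+/- libraries. Differences are wild-type minus PDHB+/- on the scale of log2(TPM + 1), with limma's standard error and Benjamini-Hochberg adjusted p. The 4 PDHB+/- libraries entered as independent samples although they came from clone #1 and clone #2 only. The standard errors and p-values do not allow for libraries that share a clone or a replicate number. Of 17291 genes tested, 5475 (31.7%) were called at an adjusted p under 0.05, 1532 (8.86%) higher and 3943 (22.8%) lower in wild-type. The median difference over all genes was -0.13. With median-of-ratios scaling it was 0.00, and 4938 genes were called, 2512 (14.5%) higher and 2426 (14.0%) lower, so the share of calls that were higher in wild-type went from 28.0% to 50.9%. The mitochondrial genome held 24.6% and 24.4% of TPM in wild-type, 12.1% and 10.9% in replicate 1 of the PDHB+/- clones and 19.9% and 20.9% in their replicate 2, so that it differed more between the replicates of each clone than between wild-type and PDHB+/- replicate 2, and its part in the differences was not tested. Scaled without its genes, 4730 genes were called, 2334 higher and 2396 lower. A gene was tested if its mean over all 6 libraries reached 1 TPM, so a gene under 1 TPM in one group entered only through the other group and its direction was fixed by that, and such genes that were called are named with their list. Below, a gene is said to be higher or lower only if limma called it, and genes whose call was lost under median-of-ratios scaling are marked.

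The DE markers were split. LEFTY2 was higher in wild-type than in PDHB+/- libraries, which had 220 to 402 TPM, by 3.67 ± 0.22 (limma, adjusted p = 0.00017). GSC was higher by 0.52 ± 0.08 (269 to 313 TPM in PDHB+/-, limma, adjusted p = 0.0041), a call that was lost without wild-type replicate 2. SOX17 was lower in wild-type by 0.74 ± 0.08 (711 to 774 TPM in PDHB+/-, limma, adjusted p = 0.00088) and EOMES by 0.62 ± 0.09 (812 to 927 TPM, limma, adjusted p = 0.0030). In all of these the groups did not overlap. CER1 was at 8498 to 12154 TPM in PDHB+/- (difference 0.48 ± 0.19, limma, adjusted p = 0.095) and CXCR4 at 143 to 280 TPM (0.86 ± 0.28, limma, adjusted p = 0.056), and neither was called although both wild-type libraries lay above all 4. Under median-of-ratios scaling both were called, with limma adjusted p of 0.029 and 0.031. With a block for the replicate number, CXCR4 was also called and CER1 was not. FOXA2 (0.11, limma, adjusted p = 0.39) and MIXL1 (0.04, limma, adjusted p = 0.75) overlapped between the groups, and FOXA2 was called higher under median-of-ratios scaling (0.26, limma, adjusted p = 0.039). Thus 2 markers of 8 were higher and 2 lower, beside 8.86% and 22.8% of all genes, or 5 and 2 under median-of-ratios scaling, beside 14.5% and 14.0%.

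LEFTY1 was higher in wild-type by 1.99 ± 0.18 (499 to 805 TPM in PDHB+/-, limma, adjusted p = 0.00058). Of 20 tested genes of the Nodal list, 3 were higher (LEFTY1, LEFTY2 and SMAD3) and 5 lower, of which the calls of ACVR2A, SKIL and PMEPA1 were lost under median-of-ratios scaling. These counts stand beside 8.86% of all genes higher and 22.8% lower. Under median-of-ratios scaling they turned to 5 and 2, beside 14.5% and 14.0%. The SMAD3 call was lost when any 1 library was left out and with either clone alone. NODAL was at 194 to 325 TPM in PDHB+/-, below both wild-type libraries, and was not called (0.55, limma, adjusted p = 0.065), but was under median-of-ratios scaling (limma, adjusted p = 0.028). NODAL was also called with the replicate block. Among endoderm factors, 3 of 15 were higher and 4 lower, or 6 and 4 under median-of-ratios scaling, of which SOX9 entered only through PDHB+/- and HNF4A only through wild-type. FOXA3 was higher by 1.18 ± 0.12 (limma, adjusted p = 0.00094), while PRDM1 was lower by 0.56 ± 0.06 (limma, adjusted p = 0.0014). HNF4A, a regulator of liver genes, was at 0.702 to 1.28 TPM in PDHB+/-. GATA4, GATA6 and OTX2 were not called, and OTX2 was called higher under median-of-ratios scaling (0.45, limma, adjusted p = 0.013). OTX2 was also called with the replicate block. Of 14 surface genes, 4 were higher, with FZD5 the most at 1.64 ± 0.16 (109 to 162 TPM in PDHB+/-, limma, adjusted p = 0.00081), and 3 were lower. CDH1 was higher by 0.71 ± 0.14 (limma, adjusted p = 0.010), while CDH2 was lower by 0.56 ± 0.14 (limma, adjusted p = 0.021), and both calls were lost when either wild-type library was left out.

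Several mesendoderm genes were lower in wild-type, among them genes of the streak such as EVX1 and SP5, while MESP1, MESP2, TBX6, MSGN1 and CDX1 were too low to be tested. Of 11 tested mesendoderm genes, 7 were lower (EOMES among them) and 3 higher, or 6 and 3 under median-of-ratios scaling, and TBXT and HAND1, both among the lower, entered only through PDHB+/-. EVX1 was lower by 4.51 ± 0.21 (32.7 to 58.0 TPM in PDHB+/-, limma, adjusted p = 7.9e-05), SP5 by 2.51 ± 0.16 (limma, adjusted p = 0.00022) and TBX3 by 1.99 ± 0.09 (limma, adjusted p = 7.9e-05). TBXT was at 1.30 to 4.28 TPM in PDHB+/-, and its call was lost under median-of-ratios scaling. WNT genes went the same way, with 9 of 14 lower and 1 higher under both scalings, although 4 of the lower (WNT5A, WNT9B, DKK4 and RSPO3) entered only through PDHB+/-. DKK1, a WNT inhibitor and target, was lower by 3.80 ± 0.31 (limma, adjusted p = 0.00044). In the BMP list, 11 of 16 were lower and 0 higher, or 8 and 0 under median-of-ratios scaling. BAMBI was lower by 2.27 ± 0.10 (89.0 to 105 TPM in PDHB+/-, limma, adjusted p = 7.6e-05), ID1 by 2.20 ± 0.18 (limma, adjusted p = 0.00045) and ID3 by 1.09 ± 0.13 (limma, adjusted p = 0.0015). These shares stand beside 22.8% of all genes that were lower, or 14.0% under median-of-ratios scaling.

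Of 14 tested pluripotency factors, 5 were lower in wild-type and 2 higher under both scalings, beside 22.8% and 8.86% of all genes, or 14.0% and 14.5% under median-of-ratios scaling, and SOX2 was not called (1.86 to 7.22 TPM in PDHB+/-, limma, adjusted p = 0.19) and overlapped between the groups. NANOG was lower by 1.48 ± 0.15 (17.7 to 25.9 TPM in PDHB+/-, limma, adjusted p = 0.00089), POU5F1 by 1.43 ± 0.19 (6.00 to 9.79 TPM, limma, adjusted p = 0.0025) and MYC by 1.56 ± 0.10 (limma, adjusted p = 0.00022). ZFP42, a gene of naive ESCs, was higher by 2.41 ± 0.23 (1.55 to 3.26 TPM in PDHB+/-, limma, adjusted p = 0.00070). Of 13 other ESC genes, 6 were lower and 1 higher, or 3 and 1 under median-of-ratios scaling (FGF2 entered only through PDHB+/- and lost its call under that scaling), and TDGF1, L1TD1 and DNMT3B overlapped between the groups. Among other ligands, VEGFA was higher by 1.02 ± 0.16 (35.6 to 53.8 TPM in PDHB+/-, limma, adjusted p = 0.0045), and 11 of 18 were lower, or 10 under median-of-ratios scaling, where TGFB3 lost its call (KITLG and TGFB3 entered only through PDHB+/-), among them CXCL12 by 2.18 ± 0.15 (limma, adjusted p = 0.00030). Of 9 tested FGF genes, 1 was higher and 5 lower, or 2 and 2 under median-of-ratios scaling, FGF2 and FGF10 entering only through PDHB+/-. FGF17 was not called (0.16, limma, adjusted p = 0.15), but was called higher under median-of-ratios scaling (0.31, limma, adjusted p = 0.015). Among single genes of other lineages, SOX10 was higher by 1.98 ± 0.10 (3.88 to 4.58 TPM in PDHB+/-, limma, adjusted p = 9.2e-05), VIL1 by 1.87 ± 0.36 (limma, adjusted p = 0.0086, a call lost when either wild-type library was left out) and SIX3 by 1.02 ± 0.15 (limma, adjusted p = 0.0033), while MYL7 overlapped between the groups. Of 8 tested HOX genes, 6 were higher, of which HOXB3, HOXD9, HOXD10 and HOXD11 entered only through wild-type. HOXD13 was higher by 1.42 ± 0.16 (limma, adjusted p = 0.0013), and HOXB13 was lower by 0.58 ± 0.09 (limma, adjusted p = 0.0050), a call lost without wild-type replicate 2.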

How the data were processed

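The series holds 6 RNA-seq libraries of HUES8 cells. The authors checked reads with FastQC (0.12.1 per the labels), aligned them to hg38 with bowtie2 (2.3.5.1 per the labels), which does not split reads over introns, kept each read at 1 location, counted reads with featureCounts and deposited TPM values. The counting annotation and strandedness are not given in the sources used here. The 1 line without a gene name was dropped, and 0 columns were left unused. The members and gene lists were chosen with earlier results of these data known.

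Genes were matched to RefSeq by symbol (48083), by synonym (332) or not (863), and their classes came from this match. Exons, exonic overlaps and canonical transcripts came from GENCODE 44. Whole reads were worked out from the TPM steps (tolerance 0.005), and the counting length equalled the annotated one for 15 of 15 mitochondrial genes other than transfer RNAs. Levels were means of both wild-type libraries, with a gene counted as detected at 1 TPM in both. Genes named are the 8 markers, the 20 most abundant genes, the 10 most abundant nuclear protein-coding genes, list members at 10 TPM or more, lineage markers at 1 TPM or more, copies of these, and lower genes that bear on whether a factor is absent. Wild-type was compared with PDHB+/- by limma 3.58.1 (R 4.3.3, trend) on log2(TPM + 1), for genes whose mean reached 1 TPM across all 6 libraries, with Benjamini-Hochberg adjustment at 0.05, and the code was tested on simulated data. The authors' DESeq2 needs counts, which were not used as the main test. Alternatives were another pseudocount, other filters and scalings, each clone alone, a replicate block and leaving out each library. Some members counted in the lists and a sequence are not reported here.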

Additional observations from a re-analysis of the deposited data

Results flagged for a closer look

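BAMBI, a decoy receptor of the BMP and activin pathways, was flagged because 1 of the 4 PDHB+/- libraries stood apart from the other 3. The gap between that library and its nearest neighbour was 0.851 of the range of the group, above the 95% critical value of Dixon's test for 4 samples. All 4 PDHB+/- libraries lay between 89.0 and 105 TPM, and the wild-type libraries were at 20.01 and 17.3 TPM. Chance flags about 1 in 20 groups.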

How the results depend on the processing

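The summed wild-type levels of the 8 DE markers, 20438 TPM, ran from 20309 to 20566 TPM with 1 replicate left out, were 27076 TPM when scaled without the mitochondrial genome, and 38831 per canonical length, with no rescaling to the same total. The genes detected in wild-type numbered 8891 at 10 TPM. The share of the most abundant RNAs, 40.6%, was 23.6% without the mitochondrial genome, 21.7% for nuclear protein-coding genes only and 43.9% for protein-coding genes only. For wild-type against PDHB+/-, with 5475 genes called by limma, clone 1 alone gave 3390 and clone 2 alone 3333. Leaving out 1 library gave 1657 to 5187, the lowest counts being 1770 and 1657 without wild-type replicate 1 or 2, where the lone wild-type library is assumed to vary like the others. Of 174 genes on the lists, none that was called changed direction under the alternatives run, some that were not called did (GATA4, LGR5 and TDGF1 under median-of-ratios scaling), and 44 and 47 calls were lost without wild-type replicate 1 or 2. The correlations of same-numbered replicates were -0.01, -0.01 and 0.35 between pairs of groups, the last between the PDHB+/- clones. The numbers were therefore not taken to pair wild-type with PDHB+/- libraries, although same-numbered libraries of the clones varied together to that extent. With the replicate block 6266 genes were called, 1750 higher and 4516 lower in wild-type, and CXCR4, NODAL and OTX2 were called higher (limma, adjusted p = 0.016, 0.030 and 0.045). Scaling per canonical length and scaling the comparison without mitochondrial genes were chosen after seeing the data. Depth limits statements on genes with few reads, and 2 wild-type libraries limit all errors.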
